A study of Mus musculus with 22 samples.

Results

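Transferred wild-type regulatory T cells (WT Treg) were compared with scurfy CD4+ T cells that carried only a reporter (LNGFR), after both had spent weeks in scurfy mice. The comparison was set by the sample titles: 6 WT Treg libraries (codes E2, G4 and L1) against 6 LNGFR libraries (codes G1, G2 and G3), which are 12 of the 22 libraries and 6 of the 11 codes of the series. Each code labels 2 libraries, whose counts were added up to give 1 replicate, since nothing in the labels places the 2 in different animals. Nor do the labels equate a code with an animal, and the spread behind every p-value is that between codes, which may be partly technical. The other 10 libraries (5 codes, scurfy CD4+ T cells given human FOXP3) entered the fit for its estimate of spread, and their levels are given beside a few genes.

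WT Treg were CD4+CD25+ donor cells marked by the CD45.1 form of the surface protein CD45. LNGFR cells were CD4+ T cells from lymph nodes of 10-day-old scurfy mice that received an empty vector whose reporter, LNGFR, is a shortened nerve growth factor receptor on the cell surface. The recipients of both were 10-day-old scurfy mice treated with cyclophosphamide at 50 mg/kg, and the cells followed intraperitoneally on day 14. Human IL-2 was then given at 1000 IU/g, daily for 5 days and weekly afterwards. Lymph node cells were collected on day 50, and each library was made by full-length (Smart-seq) RNA sequencing from 1000 CD4+ T cells that had been sorted in 2 rounds, by CD45.1 for WT Treg and by the reporter for LNGFR. All samples, WT Treg included, carry the strain label C57BL/6 and the genotype label "Scurfy - FOXP3 KO", and the source label "CD4 TReg Cell" stands on FOXP3 libraries too. Donor genotype, vector, cell preparation (CD25+ cells against all CD4+ cells) and sort marker all differ between the 2 groups and cannot be told apart. The age of the WT Treg donors is not labelled, so donor age may differ as well.

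Regulatory T cells restrain other immune cells, and the transcription factor Foxp3 fixes much of their identity. Scurfy mice lack functional Foxp3, so their CD4+ T cells become activated, make inflammatory cytokines and drive a fatal autoimmune disease. Treg are known for the high-affinity IL-2 receptor, for surface machinery that activates TGF-beta, and for silencing effector cytokine genes.

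Depth and purity were uneven. The codes held 1154626 (E2), 5946290 (G4), 7088371 (L1), 3109515 (G1), 5867295 (G2) and 7881352 (G3) gene counts. Both E2 libraries (641980 and 512646 counts) and the second library of G1 (332570 counts) were weak, and repeat-derived gene models of the Gm10800 family took 54.8% of the counts of E2, 6.55% of those of G1 and at most 4.41% of those of the other 4 codes. CPM are counts scaled to 1000000 per code after TMM normalization. Across genes, log2 CPM of the 2 libraries, here without TMM, correlated at 0.80 in E2, 0.45 in G1 and 0.96 to 0.97 in the other 4 codes. A count of 1 was worth 1.32 CPM in E2 and 0.120 to 0.336 CPM elsewhere, so low values in E2 are coarse. The CD4 T cell markers were present in all 6 codes, with sums over 12 genes of 3280.03, 8189 and 7658 CPM in WT Treg and 9889, 7535 and 7208 CPM in LNGFR. Xist had 47 counts in E2 (61.9 CPM) and at most 3.36 CPM in the other 5 codes, while transcripts of Y-linked genes were found in every code. Values below run in the order E2, G4, L1 for WT Treg and G1, G2, G3 for LNGFR. CPM are not divided by gene length, so levels are compared between groups and never between genes.

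Few genes passed in the main setting, and those that did had moved far. At the spread between these codes small changes could hardly pass. The number that passed depended on the setting, as given further below. Of 15462 genes tested, 97 were higher in WT Treg (0.627%) and 104 lower (0.673%), together 1.30%, at a Benjamini-Hochberg adjusted p under 0.05 in edgeR's quasi-likelihood test. Below, "rose" and "fell" are used only of genes that passed. Counts of list members that rose or fell are to be read beside the 0.627% and 0.673% of all genes. Every called gene differed by more than 2-fold, 60 rose and 82 fell by more than 4-fold, and 6 rose and 26 fell by more than 16-fold. The smallest called log2 fold change was 1.22 in size. The codes of the 2 groups did not overlap for any of the 201, while over all genes tested 1206 lay entirely higher in WT Treg (7.80%) and 1363 entirely lower (8.82%). A further measure of how much more may differ is that 2290 genes (14.8%) had an unadjusted p under 0.05. Protein-coding genes made up 83 of the 97 and 90 of the 104. The median log2 fold change over all genes was 0.08, and all fold changes below are log2, WT Treg minus LNGFR, ± SE.

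**Figure D1:**
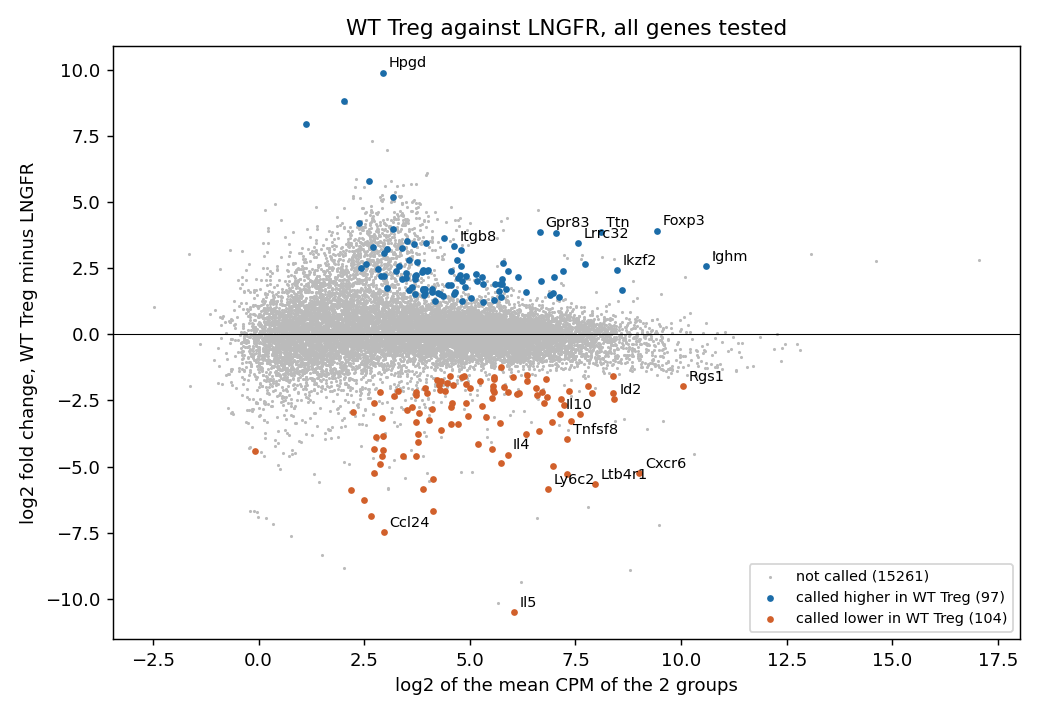
Log2 fold change of WT Treg minus LNGFR against the log2 of the mean CPM of the 2 groups, 1 point per gene tested, with the 97 genes called higher and the 104 called lower in colour. The called genes lie apart from 0 at all levels of expression, with Il5, Ccl24 and Foxb1 lowest and Hpgd highest.

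Foxp3, measured at the mouse gene (chromosome X, 7573644 to 7595245 in GRCm38, as are all positions below), stood at 704, 1581 and 1630.1 CPM in WT Treg and 42.7, 72.7 and 143 CPM in LNGFR. Every WT Treg code was far above every LNGFR code, and E2 was the lowest of its group. The fold change was 3.92 ± 0.52 (adjusted p = 0.00191). Foxp3 reads were present in each of the 6 LNGFR libraries, from 30.1 to 167 CPM of the raw library total. Flicr, a noncoding RNA of the same locus that lies on the Foxp3 strand and overlaps it, was 48.7, 43.8 and 43.5 CPM in WT Treg and 5.38, 11.4 and 15.6 CPM in LNGFR, again without overlap (2.03 ± 0.39, adjusted p = 0.0214). How reads in the shared stretch were assigned is not given in the sources used here. Within 50 kb of Foxp3, 6 genes were tested and only these 2 passed. Ngfr, the mouse gene of the receptor that the reporter derives from, was too rare to test, with 1, 5 and 0 counts in WT Treg and 11, 3 and 1 in LNGFR. It therefore gives no check of the reporter, whose own transcript was not analysed here.

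Of 34 Treg identity genes, all tested, 7 rose and 2 fell, against 0.627% and 0.673% of all genes. The median was 0.75 against 0.08 over all genes. The 7 were nuclear partners of Foxp3, surface receptors and parts of the TGF-beta machinery. Ikzf2, which encodes Helios, was 378, 763 and 675 CPM in WT Treg and 74.6, 116 and 147 CPM in LNGFR. Its relative Ikzf4, which encodes Eos, was 132, 260.2 and 231 CPM and 39.3, 48.02 and 50.6 CPM. Both factors separated the groups completely, with fold changes of 2.43 ± 0.41 (adjusted p = 0.0106) and 2.18 ± 0.37 (adjusted p = 0.0104). Gpr83, an orphan receptor long used as a Treg marker, was 96.1, 265 and 204 CPM and 13.8, 11.5 and 13.9 CPM, nearly flat within LNGFR (3.86 ± 0.46, adjusted p = 0.000937). Tnfrsf9, the costimulatory receptor 4-1BB of activated Treg, stood at 69.8, 346 and 321 CPM against 9.75, 18.2 and 23.1 CPM (3.84 ± 0.59, adjusted p = 0.00615). E2 was the lowest WT Treg code for all 4, and it still lay above every LNGFR code.

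The TGF-beta group joined 3 genes that rose with 1 that fell, out of 21 tested (median 0.16). Over all genes 0.627% rose and 0.673% fell. Latent TGF-beta is held on the Treg surface by GARP and freed by an integrin, and both components rose. Lrrc32, the GARP gene (chromosome 7, 98489283 to 98502181), was 203, 454 and 380.2 CPM in WT Treg and 16.1, 38.7 and 39.9 CPM in LNGFR, a fold change of 3.45 ± 0.50 (adjusted p = 0.00410). Itgb8, the beta chain of the activating integrin, was 55.3, 39.9 and 40.6 CPM and 5.38, 3.201 and 4.79 CPM (3.34 ± 0.39, adjusted p = 0.000797), and here E2 was the highest of the WT Treg codes. The signalling receptor Tgfbr1 was even within each group, at 69.8, 80.4 and 84.4 CPM and 22.9, 26.9 and 25.1 CPM (1.65 ± 0.24, adjusted p = 0.00449). Tgfbr3, the co-receptor betaglycan, went the other way, with 6.58, 3.88 and 3.33 CPM and 32.3, 57.3 and 36.7 CPM (-3.38 ± 0.48, adjusted p = 0.00346). Itgav, which pairs with Itgb8, had a fold change of 1.11 ± 0.33 (adjusted p = 0.161) and did not pass.

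Several textbook Treg genes did not pass, among them some named here after their values were seen. Il2ra, the IL-2 receptor alpha chain by which CD25+ donor cells were chosen, was 330.4, 932 and 883 CPM in WT Treg and 223, 293 and 312 CPM in LNGFR. All 3 WT Treg codes lay above LNGFR, E2 by little, and the difference of 1.38 ± 0.40 (adjusted p = 0.141) missed the threshold. Without the weak libraries it was 1.63 (adjusted p = 0.0103) and passed. Ctla4, an inhibitory receptor, was 417, 878 and 971 CPM and 276, 708 and 580.4 CPM, and the groups overlapped (0.54 ± 0.43, adjusted p = 0.576). Tnfrsf18, which encodes GITR, was 224, 669 and 617 CPM and 1137, 439 and 422 CPM, highest in G1 (-0.40 ± 0.48, adjusted p = 0.736), and without E2, G1 and N3 it turned to 0.58 (adjusted p = 0.0387). Entpd1, the ectoenzyme CD39, had a fold change of -0.09 ± 0.49 (adjusted p = 0.959), and the checkpoint receptor Tigit one of -0.08 ± 0.35 (adjusted p = 0.947). Dusp4, a phosphatase of MAP kinases, was 10.5, 22.96 and 55.003 CPM and 7.397, 6.88 and 3.36 CPM without overlap (2.44 ± 0.58, adjusted p = 0.0623). Leaving out 1 code gave from 2 that rose (without L1 or G2) to 11 (without E2), and from 0 that fell (without G4, L1 or G2) to 3 (without G1). Without the 3 weak libraries 13 of the 34 rose and the same number fell, 2; the 6 added were Il2ra, Dusp4, Itgae (2.49, adjusted p = 0.0397), Tnfrsf1b (2.29, adjusted p = 0.0254), Plagl1 (3.26, adjusted p = 0.0265) and Nrn1 (3.35, adjusted p = 0.0459).

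The 2 Treg identity genes that fell were Il10 and Rgs1. Il10, an anti-inflammatory cytokine of both Treg and effector T cells, was 11.8, 35.4 and 41.95 CPM in WT Treg and 252, 252 and 256 CPM in LNGFR, where the 3 codes were almost equal (-3.02 ± 0.48, adjusted p = 0.00775). Rgs1, a regulator of G protein signalling in activated and tissue T cells, was 263, 487 and 552 CPM and 1872, 1936 and 1283 CPM (-1.96 ± 0.40, adjusted p = 0.0279). FOXP3 codes held 156 ± 60.2 CPM of Il10 (SD, n = 5). Among 21 tested genes of effector and tissue Treg, 1 rose and 2 fell (median -0.56). Dgat2, an enzyme of triglyceride synthesis, rose (30.3, 37.7 and 17.6 against 1.34, 3.68 and 2.52 CPM, 3.44 ± 0.51, adjusted p = 0.00485). Lag3, an inhibitory receptor, fell from 393 ± 141 to 82.7 ± 20.8 CPM (SD, n = 3 each, adjusted p = 0.0118), and Areg, the repair growth factor amphiregulin, from 171 ± 67.9 to 37.2 ± 11.98 CPM (adjusted p = 0.0446). Areg did not pass without the weak libraries (-2.27, adjusted p = 0.0868). Pparg, a nuclear receptor of tissue Treg and type 2 cells, was 6.58, 0 and 0.133 CPM and 21.9, 22.7 and 47.1 CPM. Its difference missed the threshold with all libraries (-5.54 ± 1.35, adjusted p = 0.0728) and passed without the weak ones (-8.45, adjusted p = 0.00533).

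The largest increase outside the Treg lists was that of Hpgd, the enzyme that degrades prostaglandin E2 (chromosome 8, 56294585 to 56321043). It had 316 counts in WT Treg and none in LNGFR, with 1.32, 18.6 and 26.6 CPM in the WT Treg codes. Against a floor of 3 counts over the LNGFR group, Hpgd was at least 128-fold higher (adjusted p = 0.0191), and nearly all of its reads came from G4 and L1. Ttn, the gene of the giant muscle protein titin, was 916, 351 and 273 CPM and 48.1, 31.5 and 26.3 CPM (3.86 ± 0.54, adjusted p = 0.00346), with E2 far above the other WT Treg codes. Slc15a2, a peptide transporter, showed the same pattern at 77.7, 17.1 and 21.2 CPM against 3.699, 2.88 and 2.397 CPM (3.64 ± 0.78, adjusted p = 0.0374), and it missed the threshold without the weak libraries (2.91, adjusted p = 0.0544). Rragd, a GTPase of nutrient sensing by mTORC1, was 15.8, 23.4 and 23.2 CPM against 4.71, 0.800 and 0.599 CPM (3.54 ± 0.72, adjusted p = 0.0291). Sh3bp4, an endocytic adaptor, was 19.7, 16.3 and 21.7 CPM against 1.34, 2.08 and 2.397 CPM (3.25 ± 0.36, adjusted p = 0.000772), and Cep112, a centrosomal protein, 19.7, 17.95 and 13.2 CPM against 3.03, 0.640 and 0.120 CPM (3.97 ± 0.78, adjusted p = 0.0242). Ctse, the aspartic protease cathepsin E, was 199, 438 and 463 CPM against 36.3, 88.7 and 50.7 CPM (2.65 ± 0.41, adjusted p = 0.00638).

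A few of the genes that rose set WT Treg apart from the FOXP3 codes as well; the contrasts share the WT Treg codes, so their values are given side by side and not as independent results. Ppm1l, a protein phosphatase, was 18.4, 60.5 and 69.1 CPM in WT Treg and 6.39, 5.12 and 5.51 CPM in LNGFR (3.17 ± 0.55, adjusted p = 0.0118), and FOXP3 codes held 6.200 ± 3.22 CPM (SD, n = 5), a FOXP3 minus WT Treg fold change of -3.03 (adjusted p = 0.0154). Ctse stood at 46.5 ± 7.06 CPM in FOXP3, with -2.98 (adjusted p = 0.00247). Gpr83 was intermediate at 48.2 ± 19.2 CPM in FOXP3, with -1.98 (adjusted p = 0.0360). In all, 40 of 15462 genes (0.259%) were called between FOXP3 and WT Treg and 84 (0.543%) between FOXP3 and LNGFR.

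**Figure D2:**
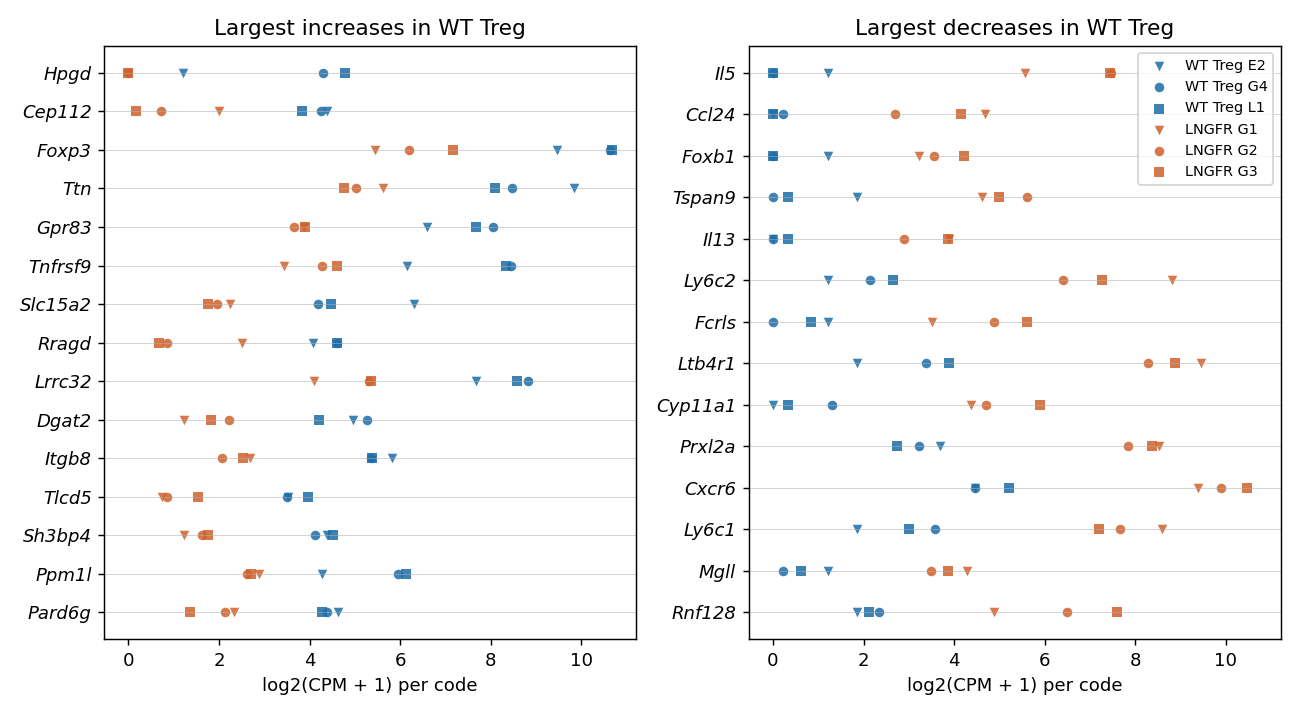
Log2(CPM + 1) in each code for the 15 largest increases (left) and 14 of the 15 largest decreases (right) among called genes that average 10 CPM or more in their higher group. Blue symbols are WT Treg and orange symbols LNGFR, with triangles for E2 and G1, circles for G4 and G2 and squares for L1 and G3; for each gene the 2 colours do not overlap.

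Type 2 cytokine genes, which CD4+ T cells of the T helper 2 kind make and which lie together on chromosome 11, were among those that fell, Il5 by the most of all called genes. The 250 bases upstream of Il4, Il13 and Il5 (RefSeq, GRCm38.p6, most upstream listed start) are shown because these neighbours fell together. Capitals mark GGAAAA, 1 form of the core bound by NFAT factors of activated T cells. They also mark AGATAA, a site of GATA factors such as the T helper 2 regulator Gata3. Both were searched on either strand, so the reverse complements are in capitals too. The Il4 stretch (chr11:53618666-53618915, minus strand) holds 4 matches to GGAAAA. The Il13 stretch (chr11:53634703-53634952, minus strand) holds 1 match to GGAAAA and 1 to AGATAA. The Il5 stretch (chr11:53720544-53720793, plus strand) matches neither of these exact strings. Shorter or variant forms were not searched, and the Il5 stretch does hold GGAAA, left in lower case.
Il4: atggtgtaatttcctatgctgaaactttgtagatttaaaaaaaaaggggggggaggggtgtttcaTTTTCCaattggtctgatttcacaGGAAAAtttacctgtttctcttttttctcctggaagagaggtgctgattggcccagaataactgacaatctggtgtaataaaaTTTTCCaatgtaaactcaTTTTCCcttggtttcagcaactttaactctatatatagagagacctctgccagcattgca
Il13: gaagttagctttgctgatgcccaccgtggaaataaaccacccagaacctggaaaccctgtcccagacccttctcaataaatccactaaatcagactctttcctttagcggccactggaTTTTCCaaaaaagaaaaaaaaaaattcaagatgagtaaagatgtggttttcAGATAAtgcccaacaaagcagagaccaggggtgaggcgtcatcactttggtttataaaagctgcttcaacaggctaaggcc
Il5: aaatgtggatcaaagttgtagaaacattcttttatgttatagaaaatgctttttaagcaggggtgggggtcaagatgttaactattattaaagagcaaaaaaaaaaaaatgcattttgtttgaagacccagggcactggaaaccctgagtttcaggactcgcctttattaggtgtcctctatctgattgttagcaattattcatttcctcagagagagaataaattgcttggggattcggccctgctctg

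A match is a description of the letters and not a binding site. GGAAAA, on either strand, stood in such windows of 16.7% of 60 genes that rose, 20.3% of 74 that fell, 18.8% of the 10629 tested genes with a window and 20.7% of all 27025 windows. AGATAA stood in 3.33%, 8.11%, 6.29% and 10.2% of the same sets. TGANTCA (N is any base), letters of AP-1 sites, stood in 5%, 5.41%, 4.38% and 6.85%. TGTGGT, a RUNX core, stood in 8.33%, 14.9%, 11.2% and 14.2%. All these shares, and those of the forkhead letters TGTTTAC, are descriptions without a test. TGTTTAC had the widest contrast of the motifs searched. It was in 2.17% of tested genes, 3.06% of all windows and none of the 60 windows of genes that rose. Among those that fell it was in 8.11%, which are 6 genes. The 6 were Akr1c13, Fcgrt, Gm17745, Lilr4b, Mgll and Yod1.

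Il5, the growth factor of eosinophils, had 1 count in WT Treg and 2671 in LNGFR, where G1, G2 and G3 held 46.1, 176 and 172 CPM. The ratio pooled over codes was 2198 (95% exact interval 394 to 86838, counting error only; adjusted p = 0.000592). The PCR-amplified reads carry no molecular identifiers, so such intervals do not cover amplification. Il13, which drives mucus and tissue eosinophilia, had 2 counts against 194, with 13.8, 6.402 and 13.5 CPM in the LNGFR codes and a ratio of 79.8 (21.8 to 664; adjusted p = 0.0312). Il4, the cytokine that sustains T helper 2 cells, was low but not lost in WT Treg: 10.5, 4.37 and 3.196 CPM against 119, 92.8 and 127 CPM, a fold change of -4.54 ± 0.45 (adjusted p = 0.000541). FOXP3 codes differed from WT Treg in Il4 (34.02 ± 10.1 CPM, SD, n = 5, 2.81, adjusted p = 0.0154), while their Il5 was 0.0885 ± 0.122 CPM and their Il13 0.192 ± 0.232 CPM.

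Of 16 tested T helper 2 genes 7 fell and none rose (median -1.61), and of 11 tested effector cytokine genes 5 fell and none rose (median -2.41); the lists share Il4, Il5 and Il13, and these genes were already known from earlier results to be low. Ccl24, an attractant of eosinophils, had 1 count in WT Treg and 246 in LNGFR, a ratio of 202 (35.99 to 8027; adjusted p = 0.00775). Epas1, the hypoxia factor HIF-2 alpha, was 6.58, 68.1 and 43.1 CPM against 133, 217 and 438 CPM (-2.67 ± 0.60, adjusted p = 0.0480). Il1rl1, the receptor of the alarmin IL-33, was 100.03, 145 and 142 CPM and 111, 272 and 418 CPM, and the groups overlapped (-1.05 ± 0.41, adjusted p = 0.272). Gata3, the master factor of T helper 2 cells, named after its value was seen, also overlapped, at 187, 759 and 809.99 CPM and 545, 997 and 1336 CPM (-0.71 ± 0.50, adjusted p = 0.515). Ptgdr2, the prostaglandin D2 receptor of type 2 cells, had a fold change of -3.08 ± 0.80 (adjusted p = 0.0964). Without the weak libraries 6 T helper 2 genes fell, since Areg no longer passed. Leaving out 1 code gave 6 without E2 or G1, 4 without G4, G2 or G3, and 2, Il4 and Il5, without L1; of the effector cytokines 2 (without L1) to 6 (without E2) fell. Mast cells, basophils and eosinophils also make type 2 cytokines. Of 14 markers of these cells 3 were expressed highly enough to test, and 1 of them, Ccr3, fell. Summed over all 14, the markers came to 117, 4.53 and 8.92 CPM in WT Treg and 63.2, 51.2 and 128 CPM in LNGFR, so that E2 reached the LNGFR range while G4 and L1 were far below it. Ccr3 alone held 42.03, 42.1 and 120.1 CPM of the LNGFR sums. Mcpt8 had 3, 1 and 1 counts in LNGFR and 2, 0 and 0 in WT Treg, and Ms4a2 2, 0 and 4 against 23, 7 and 7. Epx had 8, 0 and 0 against 1, 0 and 1, and Cpa3 5, 1 and 8 against 20, 1 and 6. As group totals in the same order, Prg2 had 14 against 0, Gata2 20 against 3, Siglecf 11 against 3 and Mcpt4 4 against 2. Fcer1a had 1 against 10, Cma1 2 against 7 and Prss34 0 against 1. The part of such cells in the type 2 differences was not tested.

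Around the cytokine locus, in a window of 500 kb on each side of Il13 chosen after the values were seen, 16 genes were tested, 6 fell and none rose. Since the window was placed on genes known to have fallen, the 3 cytokines are no part of a comparison. Values of the other 13 genes had been seen too, so their share is a description and no test of the locus. Of these 13 genes 3 fell (23.1%, against 0.673% of all genes). The 3 were Kif3a, a kinesin subunit of the primary cilium whose last exon faces that of Il4, Zcchc10, which encodes a zinc knuckle protein, and Pdlim4, which encodes a LIM domain protein. Kif3a was 6.58, 10.2 and 12.5 CPM in WT Treg and 59.9, 63.4 and 80.9 CPM in LNGFR (-2.72 ± 0.31, adjusted p = 0.000787), and Zcchc10 7.897, 7.601 and 9.59 CPM and 115, 50.9 and 59.2 CPM (-3.14 ± 0.39, adjusted p = 0.00133). The codes of the 2 groups did not overlap for either gene. Not all genes of the locus passed. Rad50, the DNA repair gene that lies between Il13 and Il5 and holds the locus control region, did not. It was 57.9, 40.3 and 40.9 CPM against 69.3, 62.7 and 88.5 CPM, lower without overlap (-0.69 ± 0.26, adjusted p = 0.259). Irf1 had a fold change of -0.02 ± 0.44 (adjusted p = 0.993). In FOXP3 codes Kif3a averaged 19.5 ± 3.95 CPM and Zcchc10 16.7 ± 4.46 CPM (SD, n = 5). Pdlim4 stayed nearer to LNGFR there, with means of 40.5 CPM in FOXP3, 52.6 CPM in LNGFR and 7.45 CPM in WT Treg. Its fold change was -2.59 ± 0.54 (adjusted p = 0.0333). Over chromosome 11 as a whole 5 of 1139 genes rose and 16 fell (1.84% called).

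**Figure D3:**
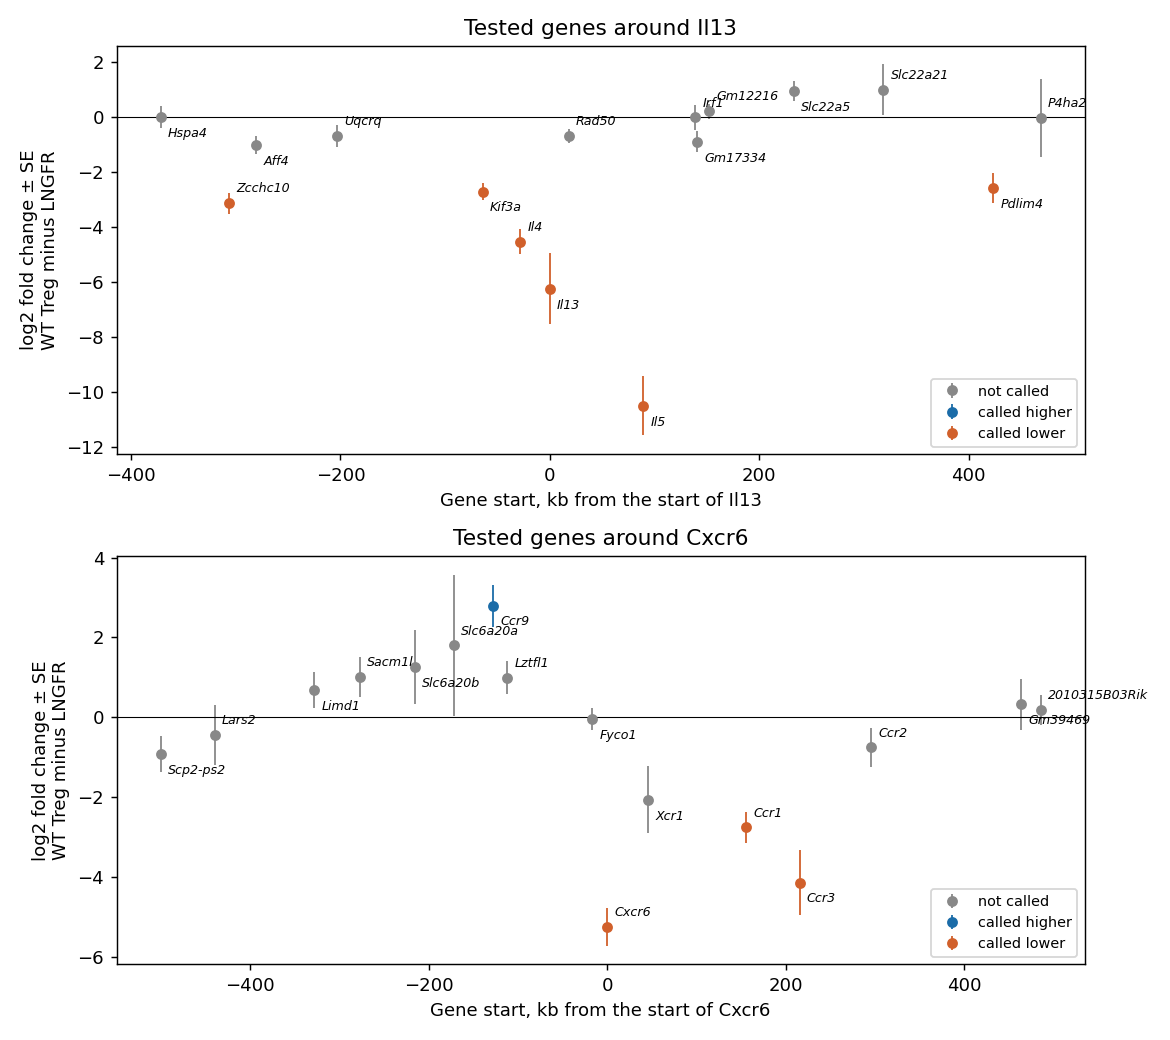
Log2 fold change ± SE of every tested gene within 500 kb of Il13 (top) and of 16 of the 17 tested around Cxcr6 (bottom), plotted by the distance of its start from the start of that gene in kb. Orange points were called lower, blue points higher and grey points not called; around Il13 6 genes were lower while Rad50 and Irf1 were not called, and around Cxcr6 3 were lower and Ccr9 higher.

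Fewer type 1 genes passed. Ifng, the macrophage-activating cytokine, was 0, 2.59 and 0.932 CPM in WT Treg and 43.04, 25.3 and 10.1 CPM in LNGFR, without overlap but over a wide range (-4.07 ± 0.74, adjusted p = 0.0162). Nkg7, a protein of cytotoxic granules, was 14.5, 62.7 and 52.7 CPM and 452, 118 and 160.3 CPM (-2.43 ± 0.55, adjusted p = 0.0494), and it did not pass without the weak libraries (-2.34, adjusted p = 0.0793). These were 2 of 19 tested type 1 and cytotoxic genes (median -0.49), and none rose. Tbx21, the master factor of type 1 cells, named after its value was seen, had a fold change of -0.72 ± 0.68 (adjusted p = 0.645), and Gzma, a granule protease, one of -2.90 ± 0.82 (adjusted p = 0.136). The 14 listed markers of CD8 T cells and natural killer cells, tested or not, summed to 111, 73.3 and 46.9 CPM in WT Treg and 272, 78.3 and 157 CPM in LNGFR, with E2 above G2, and Cd8a had 4, 1 and 3 counts against 8, 0 and 1. Their part in the Nkg7 difference was not tested. Il21, the follicular helper cytokine, was 7.897, 0.162 and 0.400 CPM against 15.1, 17.8 and 16.9 CPM: its difference did not pass with all libraries (-3.47 ± 1.29, adjusted p = 0.250) and passed without the weak ones (-5.82, adjusted p = 0.0177). Tnf, by contrast, had a fold change of 1.18 ± 0.40 (adjusted p = 0.212), with the groups overlapping.

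Some genes of helper function and of naive and memory T cells fell. Of 14 tested genes known to be low in Treg 4 fell and none rose (median -0.95), and 2 (without L1) to 5 fell when 1 code was left out. Of 17 tested naive and memory genes, 1 of them shared, 4 fell and none rose (Tcf7, Bcl2, Ly6c1 and Ly6c2). The median of the 17 was -0.56 with 6 above 0, and it was 0.0053 without G2. Tnfsf8, the CD30 ligand, was 23.7, 16.2 and 18.8 CPM in WT Treg and 269.7, 342 and 279.7 CPM in LNGFR, with little spread in either group (-3.96 ± 0.32, adjusted p = 0.000198). Cd40lg, by which helper cells license B cells and dendritic cells, was 10.5, 17.1 and 14.8 CPM and 57.2, 81.9 and 94.5 CPM (-2.41 ± 0.30, adjusted p = 0.00136). Id2, an inhibitor of E proteins, was 94.8, 111 and 109.6 CPM and 753, 411 and 564 CPM, and WT Treg codes were close to each other (-2.45 ± 0.31, adjusted p = 0.00136). Tcf7, which encodes TCF-1, a factor of naive and memory cells, was 55.3, 74.7 and 51.9 CPM and 111, 384 and 300.2 CPM, with G1 lowest in LNGFR (-2.12 ± 0.44, adjusted p = 0.0311). Without the weak libraries Themis, a thymocyte signalling adaptor, also fell (-3.15, adjusted p = 0.000925), as did Pde3b, a phosphodiesterase of cyclic AMP (-4.48, adjusted p = 0.00376). Pde3b shows how much 1 code can weigh: it was 65.8, 0.809 and 2.397 CPM in WT Treg and 31.3, 45.9 and 31.05 CPM in LNGFR, so that E2 alone lay above all LNGFR codes (-1.03 ± 1.11, adjusted p = 0.701 with E2).

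Survival and transcription genes followed in part. Bcl2, the anti-apoptotic founder of its family, was 68.4, 162 and 126 CPM in WT Treg and 467, 723 and 466 CPM in LNGFR (-2.20 ± 0.41, adjusted p = 0.0185), and with Bcl2a1d it made up the 2 of 15 family members that fell. Bcl2a1d belongs to a set of near-identical copies, and its value is uncertain (-1.84 ± 0.40, adjusted p = 0.0396, and -1.84, adjusted p = 0.0735 without the weak libraries). Of 57 tested T cell transcription factors 3 rose and 5 fell, against 0.627% and 0.673% of all genes. Myb, a factor of T cell development and of effector Treg, rose beside Ikzf2 and Ikzf4 (38.2, 20.2 and 27.7 against 9.08, 10.6 and 8.87 CPM, 1.55 ± 0.31, adjusted p = 0.0271). Vdr, the vitamin D receptor, fell (1.32, 2.75 and 2.53 against 5.72, 32.8 and 33.7 CPM, -3.31 ± 0.60, adjusted p = 0.0155), and so did Tox2, a follicular helper factor (3.95, 7.601 and 9.19 against 35.6, 19.2 and 42.2 CPM, -2.11 ± 0.36, adjusted p = 0.0107), along with Id2, Tcf7 and Epas1. Rbpj, the nuclear effector of Notch, fell as well (32.9, 16.8 and 18.9 against 62.9, 101 and 129.9 CPM, -2.17 ± 0.37, adjusted p = 0.0106). Nfkb1, the p105 subunit of NF-kB, was 146, 168 and 191 CPM against 344, 534 and 632 CPM (-1.58 ± 0.33, adjusted p = 0.0310), and Ier3, an early response gene, 0, 4.37 and 5.99 CPM against 149, 39.4 and 79.1 CPM (-4.33 ± 0.61, adjusted p = 0.00346).

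Chemoattractant receptors split between the groups. Of 23 tested 3 rose and 4 fell, against 0.627% and 0.673% of all genes, and the median was -0.03. The 4 that fell were led by Ltb4r1, the high-affinity leukotriene B4 receptor: 2.63, 9.38 and 13.9 CPM in WT Treg and 696, 309 and 466 CPM in LNGFR (-5.66 ± 0.64, adjusted p = 0.000783). Cxcr6, the receptor of CXCL16, was 21.1, 21.02 and 36.2 CPM against 662, 948 and 1416 CPM (-5.25 ± 0.47, adjusted p = 0.000198). The lowest LNGFR code exceeded the highest WT Treg code 22.3-fold for Ltb4r1 and 18.3-fold for Cxcr6. Ccr1 and Ccr3, receptors of inflammatory chemokines and of eotaxins, were 6.58, 4.53 and 7.32 CPM against 27.9, 35.9 and 58.7 CPM (-2.76 ± 0.39, adjusted p = 0.00338) and 7.897, 1.94 and 4.39 CPM against 42.03, 42.1 and 120.1 CPM (-4.14 ± 0.81, adjusted p = 0.0240). FOXP3 codes did not share the low levels: they held 537 ± 144 CPM of Cxcr6, 113 ± 54.8 CPM of Ltb4r1 and 62.9 ± 15.5 CPM of Ccr1 (SD, n = 5), with FOXP3 minus WT Treg fold changes of 4.34 (adjusted p = 0.000802), 3.54 (adjusted p = 0.0192) and 3.37 (adjusted p = 0.00193). Cysltr1, a receptor of cysteinyl leukotrienes, fell too (28.96, 6.15 and 13.6 against 112, 174 and 264 CPM, -3.67 ± 0.52, adjusted p = 0.00346).

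The 3 that rose direct lymphocytes to the gut and the marrow. Ccr9, the receptor for small intestine homing, was 43.4, 47.1 and 45.4 CPM in WT Treg and 5.04, 10.6 and 3.84 CPM in LNGFR, the WT Treg codes being almost equal (2.80 ± 0.53, adjusted p = 0.0197). Gpr15, which guides T cells to the colon, was 13.2, 37.5 and 24.9 CPM and 1.68, 6.08 and 6.11 CPM (2.44 ± 0.55, adjusted p = 0.0496). Cxcr4, the receptor of CXCL12, was 22.4, 46.6 and 41.2 CPM and 17.1, 6.88 and 8.03 CPM, with E2 and G1 close to each other (1.85 ± 0.38, adjusted p = 0.0323). Among 24 integrin and homing genes Itgb8 and Itga6 rose and Itgb3 fell (median 0.45). Itga6, the alpha-6 laminin receptor chain, was 31.6, 74.9 and 84.6 CPM against 9.08, 18.9 and 15.5 CPM (2.15 ± 0.39, adjusted p = 0.0163), and Itgb3, the beta-3 chain, 19.7, 22.96 and 24.6 CPM against 45.7, 72.8 and 101 CPM (-1.69 ± 0.38, adjusted p = 0.0452). Ccr9 sits 128 kb from Cxcr6. In the 500 kb on each side of Cxcr6, also chosen after the values were seen, 17 genes were tested, with Cxcr6, Ccr1 and Ccr3 lower, Ccr9 higher and Ccr2 (-0.76) not called. Ccr9 overlaps Lztfl1 and Slc6a20a, and Cxcr6 overlaps Fyco1, on the opposite strand; none of these neighbours passed.

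Surface proteins of the Ly6 family, a marker of memory and effector CD4+ T cells, were among the largest decreases. Ly6c2 was 1.32, 3.396 and 5.33 CPM in WT Treg and 449, 83.9 and 153 CPM in LNGFR (-5.85 ± 0.65, adjusted p = 0.000772), and Ly6c1 2.63, 10.997 and 7.06 CPM and 383, 203 and 147 CPM (-4.97 ± 0.55, adjusted p = 0.000772). The copies are alike: of all stretches as long as a read (38 bases), 27.6% of those in Ly6c1 transcripts also occur in Ly6c2 and 17.9% of those in Ly6c2 occur in Ly6c1. Their split is therefore uncertain, while both fell. Ly6a, the Sca-1 gene, was 166, 939.6 and 611 CPM and 2795, 1009.9 and 1257 CPM and did not pass (-1.56 ± 0.55, adjusted p = 0.230). Of 15 tested genes of the Ly6 and GPI surface list, which also holds genes outside the Ly6 family, 3 fell and none rose (median -1.04). In that list 2 genes lay above 0. Prxl2a, a peroxiredoxin-like protein, was 11.8, 8.41 and 5.73 CPM against 367, 229 and 330.5 CPM (-5.27 ± 0.46, adjusted p = 0.000198), and Rnf128, the ubiquitin ligase GRAIL of T cell anergy, 2.63, 4.04 and 3.33 CPM against 28.2, 88.3 and 192 CPM (-4.86 ± 0.60, adjusted p = 0.00133). For both, the lowest LNGFR code was above the highest WT Treg code.

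Of 14 tested neuropeptide and adrenergic genes 4 fell and none rose, against 0.673% lower over all genes, and the median was -1.41. Leaving out 1 code gave 2 or 3 that fell, except without L1, where edgeR called none of 18 tested and 5 had an unadjusted p under 0.05. Ramp1, which makes up part of the CGRP receptor on which this pain neuropeptide acts, was 13.2, 9.22 and 11.5 CPM in WT Treg and 291, 72.02 and 87.4 CPM in LNGFR, where G1 was highest (-3.77 ± 0.62, adjusted p = 0.00883). Ramp3, its relative, was 5.26, 5.82 and 5.73 CPM and 37.3, 22.9 and 18.7 CPM (-2.20 ± 0.33, adjusted p = 0.00500). Vipr1, a receptor of vasoactive intestinal peptide, was 2.63, 2.26 and 4.26 CPM and 16.1, 35.1 and 23.7 CPM (-2.97 ± 0.49, adjusted p = 0.00949). Nmur1, the neuromedin U receptor known from type 2 innate cells, was 5.26, 10.8 and 12.5 CPM and 40.7, 28.3 and 48.9 CPM (-1.93 ± 0.42, adjusted p = 0.0420), and was the only 1 of the 4 that did not pass without the weak libraries (-1.88, adjusted p = 0.0594). Cyp11a1, the enzyme that opens steroid synthesis and is found in type 2 cells, was 0, 1.46 and 0.266 CPM against 19.8, 24.97 and 58.5 CPM (-5.48 ± 0.84, adjusted p = 0.00600), and Mgll, a lipase that ends endocannabinoid signals, was 1.32, 0.162 and 0.533 CPM against 18.5, 10.2 and 13.5 CPM (-4.90 ± 1.07, adjusted p = 0.0434). Both had few or no reads in WT Treg, so their folds rest on low counts. Tspan9, a tetraspanin, was 2.63, 0 and 0.266 CPM against 23.5, 48.02 and 30.7 CPM (-6.67 ± 0.83, adjusted p = 0.00133). Foxb1, a forkhead factor better known from the brain, had 1 count against 239 (ratio 197, 34.96 to 7799; adjusted p = 0.0273).

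**Figure D4:**
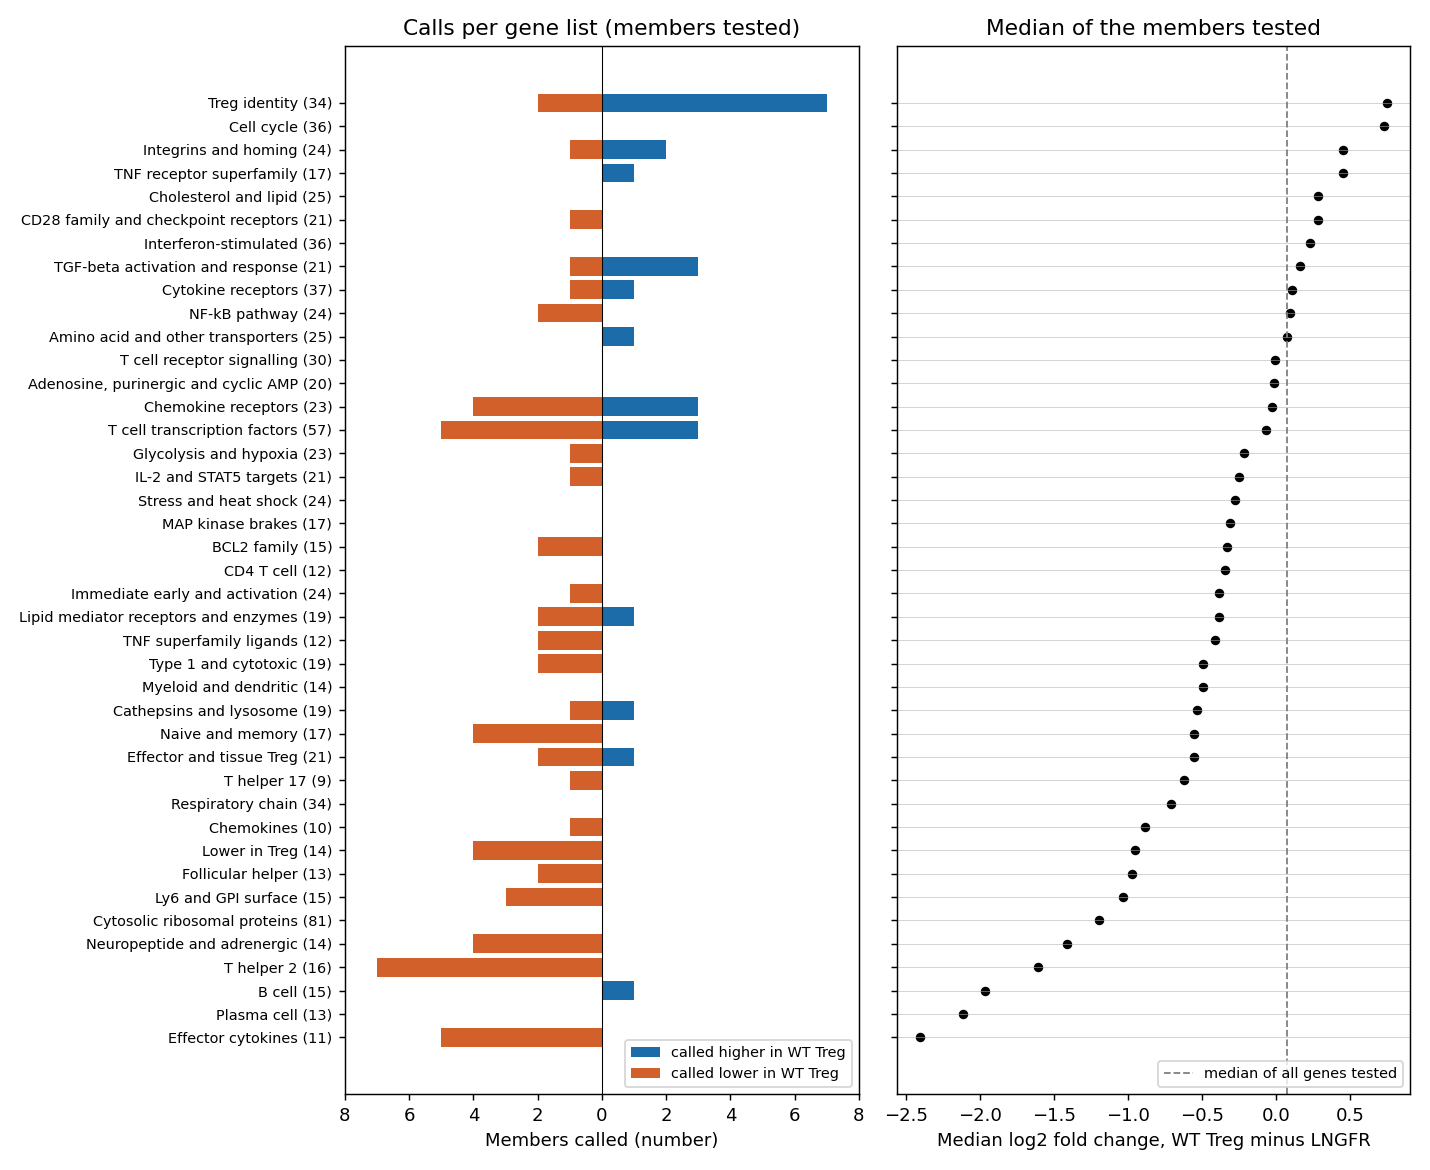
For each gene list with at least 9 members tested, the number of members called higher (blue, to the right) and lower (orange, to the left) and, beside it, the median log2 fold change of the members tested, with the median of all genes as a dashed line. Treg identity has the most members called higher (7) and T helper 2 the most called lower (7), and lists with low medians and no calls, such as the ribosomal and plasma-cell genes, stand near the bottom.

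Other programmes had no member past the threshold. Among 30 T cell receptor signalling genes the median was 0.00, with 15 above 0 and 15 below. Among 36 interferon-stimulated genes it was 0.23, and the member with the smallest p, Oas1a, was 6.58, 47.9 and 15.98 CPM in WT Treg and 4.37, 1.12 and 3.596 CPM in LNGFR (3.06 ± 0.81, adjusted p = 0.104). Cell-cycle genes leaned upward, with 33 of 36 above 0 and a median of 0.74, but only 4 had an unadjusted p under 0.05. Bub1, a spindle checkpoint kinase, came nearest (2.04 ± 0.53, adjusted p = 0.101). Mki67, the proliferation marker, was 111, 85.7 and 126 CPM and 51.1, 51.7 and 56.2 CPM without overlap (1.02 ± 0.47, adjusted p = 0.335). Without the 3 weak libraries none of the 36 passed, and 9 had an unadjusted p under 0.05. Without codes E2, G1 and N3 (the last a FOXP3 code), 18 of the 36 rose and none fell, while 615 of all 14688 genes rose. N3 was the lowest FOXP3 code for these genes, with a sum of 1458 CPM against 4297 to 5969 CPM. Of 34 respiratory chain genes 31 lay below 0 (median -0.71). The median was -0.61 without the 3 weak libraries, with 29 below 0. Its sign turned without codes E2, G1 and N3, where the median was 0.09.

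Ribosomal protein genes shifted most uniformly of the lists with at least 9 members tested. Of 81, 79 lay below 0, 71 were lower in every WT Treg code than in every LNGFR code (87.7%, against 8.82% of all genes), and none was called, the smallest adjusted p being 0.151. The same number, 71, had an unadjusted p under 0.05. The median was -1.20, and it was -1.14 without the weak libraries, -0.61 without G1 and -0.31 without E2, G1 and N3. Summed CPM was 20842, 48889 and 46480.4 in WT Treg and 142288, 62624 and 56596 in LNGFR. The extremes were thus the 2 codes that hold the weak libraries, E2 below and G1 above, while G2 and G3 exceeded G4 and L1 by far less. The part of library quality in this shift was not tested.

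**Figure D5:**
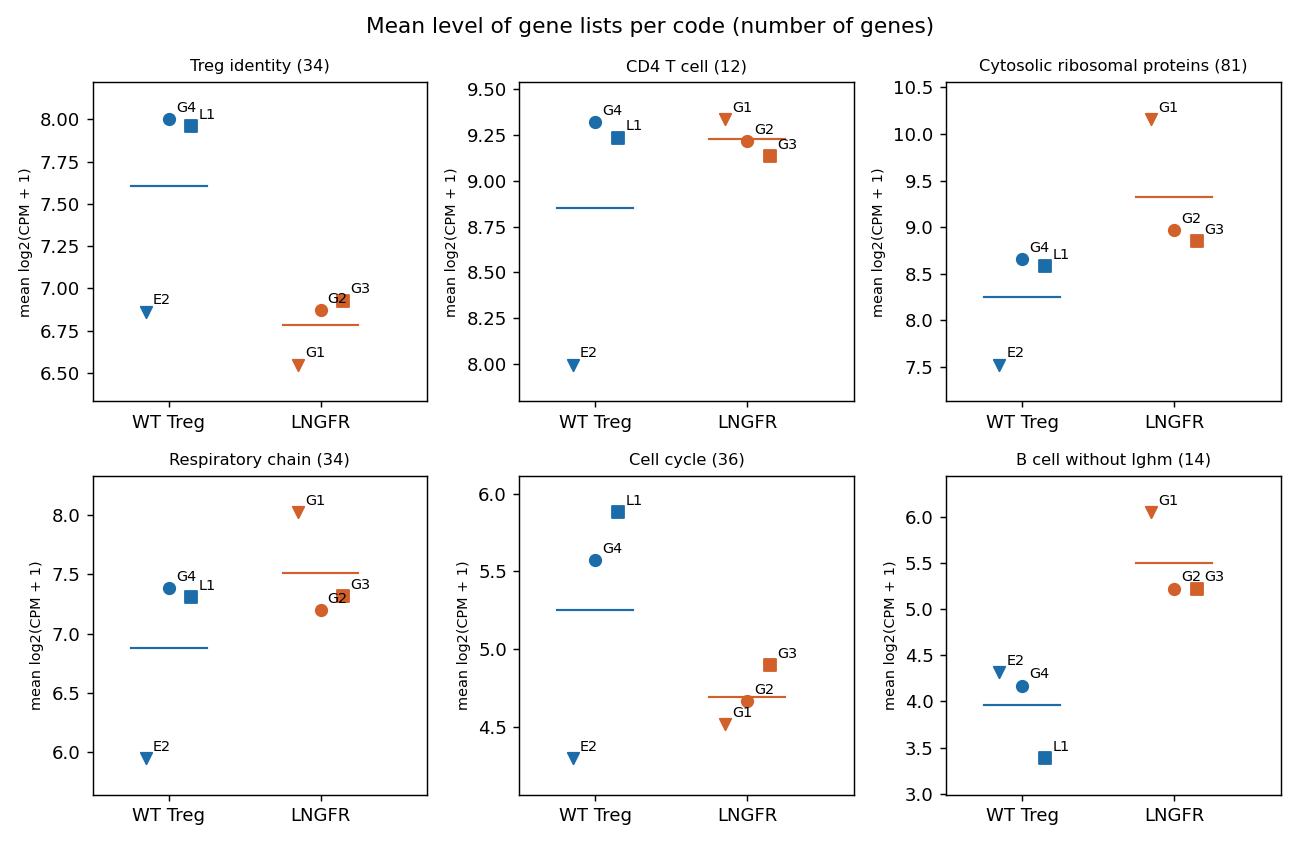
Mean log2(CPM + 1) over the tested genes of 6 lists in each code, with the mean of the 3 codes as a line; the number of genes stands in each title. E2 is low for CD4 T cell, ribosomal and respiratory genes, G1 is high for ribosomal and B-cell genes, and G4 with L1 lies above G2 and G3 for Treg identity.

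RNA of other cell types also differed, and in bulk samples fewer cells of a type and less RNA per cell cannot be told apart. Of 15 B-cell genes tested, 13 lay below 0 in WT Treg and 10 were lower in every code (against 8.82% of all genes), while none of these passed. Summed without Ighm, they came to 369, 397 and 206 CPM in WT Treg and 1931, 752 and 786 CPM in LNGFR. Cd79a, which encodes a signalling chain of the B-cell receptor, was 15.8, 37.2 and 15.8 CPM and 560.2, 107 and 99.3 CPM (-3.43 ± 1.28, adjusted p = 0.255). Plasma-cell genes summed to 303, 605 and 867 CPM in WT Treg and 7692, 1385 and 4954 CPM in LNGFR (13 tested, median -2.12, none called). Myeloid and dendritic genes summed to 391, 847 and 625 CPM and 7995, 1652 and 1751 CPM (14 tested, none called). In each of the 3 sums every LNGFR code, G1 most, exceeded every WT Treg code. The myeloid sums rest on few abundant genes: the median of that list was -0.49 (6 above 0 and 8 below), but 0.67 without G1 and 0.29 without E2, G1 and N3. The part of this RNA in the genes that fell was not tested.

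Ighm, the heavy chain gene of IgM, ran against most of the B-cell list. It was 1399, 3473 and 3041 CPM in WT Treg and 472, 477 and 381 CPM in LNGFR, a fold change of 2.57 ± 0.47 (adjusted p = 0.0162), and it was the only B-cell gene called. FOXP3 codes held 1745 ± 729 CPM (SD, n = 5). Ighj1, a joining segment of the same locus that was named after its value was seen, was 10.5, 21.99 and 20.6 CPM and 0, 0.800 and 0.479 CPM (5.18 ± 0.66, adjusted p = 0.00136). Ms4a1, which encodes CD20, lay lower, at 21.1, 24.1 and 13.98 CPM in WT Treg and 103, 84.3 and 89.9 CPM in LNGFR. Igkc, the kappa light chain, was 35.5, 85.6 and 191 CPM and 5612, 569 and 1158 CPM. Within L1 Igkc stood at 381 and 26.9 CPM of the raw library total in the 2 libraries. Myeloid Lyz2, encoding lysozyme, was 0, 13.7 and 55.4 CPM and 4.03, 0.800 and 0.479 CPM, and within L1 it stood at 98.5 and 19.4 CPM in the 2 libraries.

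WT Treg carry the CD45.1 allele of Ptprc, and DNA around it can come from the donor strain with it. Ptprc itself was 659, 1459 and 1526 CPM in WT Treg and 793, 1335 and 1332 CPM in LNGFR (0.08 ± 0.38, adjusted p = 0.953). Within 25 Mb of it 257 genes were tested, and 4 rose and 3 fell (2.72%, against 1.30% of all genes). The 4 were Ctse, Cxcr4, Lamc1 and Ptprv, and the 3 were Il10, Rgs1 and Yod1. A part of strain variation in these 7 was not tested.

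The number of calls depended on which codes and libraries were kept. Without the 3 weak libraries (both of E2, so that WT Treg is left with 2 codes, and the second of G1), 162 genes rose and 156 fell (2.07% of 15362), among them 84 of the 97 and 92 of the 104. Leaving out E2 gave 147 and 152, and leaving out G1 84 and 129. Fewer passed without a deep code: 26 rose and 33 fell without G4, 10 and 27 without L1, 12 and 38 without G2, and 21 and 45 without G3. Counts over lists moved with them. Of the TGF-beta genes 1 (without L1 or G2) to 3 rose, of the chemoattractant receptors 0 (without G4, L1 or G3) to 3 rose and 2 (without G4) to 5 (without E2) fell, and of the T cell transcription factors 0 (without G4, L1, G2 or G3) to 3 rose and 1 (without G4, L1 or G3) to 6 (without E2) fell. Of 91 named genes called here, 66 lost the call without at least 1 of the 6 codes. None of the 91 changed sign under any alternative that tested it. Codes of the 2 groups did not overlap for any called gene, so a sign could hardly turn, and this is no check of direction. Of 36 named genes that were not called, 8 changed sign under at least 1 alternative: Entpd1, Fyco1, Irf1, Ptprc, Slc6a20a, Tbx21, Tigit and Tnfrsf18. Without the weak libraries 85 of the 91 were called; the other 6 were Slc15a2, Areg, Nkg7, Bcl2a1d, Nmur1 and Lgals3. Among the 97 that rose E2 was the lowest WT Treg code for 56, and G1 the lowest LNGFR code for 58; among the 104 that fell E2 was lowest for 46 and highest for 42. Of 197 called genes with a position 51 overlap another tested gene, and the strand setting of the counting is not given in the sources used here, so reads of such pairs cannot be told apart.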

How the data were processed

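RNA was measured by Smart-seq with paired reads of 38 bp after 18 cycles of PCR. The authors deposited raw read counts per gene symbol, and per the submitters' processing notes the build was mm10 (GRCm38) and the tools included STAR (2.7.3a), Subread (2.0.0) and featureCounts. For the annotation, the strand setting and multi-mapping reads, the choice made is not given in the sources used here. The table lists 55011 genes, and 15151 of the 15462 tested matched GENCODE M21 by symbol. The 2 libraries of a code were summed, since pairs differed by more than sampling noise but are not said to be separate animals. Code totals ran from 1154626 to 7881352 counts in the 2 groups.

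The test was edgeR 4.0.16 in R 4.3.3 (robust quasi-likelihood, TMM, filterByExpr, all 11 codes in 1 fit, common biological coefficient of variation 0.491), with Benjamini-Hochberg adjusted p under 0.05 over all genes tested. SE is the fold change divided by the square root of F. Alternatives used DESeq2 1.42.0, limma 3.58.1, other filters and omitted codes. Named genes were Foxp3, Ngfr, the 15 largest non-overlapping changes per direction among called genes averaging 10 CPM or more in their higher group (without gene models, pseudogenes and receptor segments), called members of 46 gene lists with 1008 entries, up to 4 further members by smallest p, and markers for checks. The comparison and the lists were chosen with earlier results of these data known. Lists are described by counts and medians only. A group at 0 was given a floor of 3 counts, and 1 to 3 counts a 95% exact interval. A few genes that meet these rules are not reported here.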

Additional observations from a re-analysis of the deposited data

How the results depend on the processing

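The counts of 97 genes higher and 104 lower in WT Treg moved by over 1.5 times under several settings, of which those on single codes were chosen with earlier results known. Leaving out 1 code at a time gave 10 to 147 higher (lowest without L1, highest without E2) and 27 to 152 lower (without L1 and without E2). Without the 3 weak libraries there were 162 higher and 156 lower, and without codes E2, G1 and N3 there were 615 and 510, which kept 97 and 102 of the original calls. A fit on the 6 codes alone, with fewer codes to estimate the spread, gave 18 and 40. DESeq2 gave 402 and 364 (its adjusted p was not available for 2661 genes), limma with quality weights 445 and 422, each library as a sample 399 and 392, and no filter on low counts 716 and 284, a split between directions unlike the 97 and 104. Calls stayed within 1.5 times of both counts with DESeq2 size factors (108 and 108), a minimum of 10 counts in 3 codes (106 and 112) and without the Gm10800 family (98 and 105). The cause of these differences was not tested where none is named. None of the 91 called named genes changed sign under a setting that tested it, which their lack of overlap between groups made likely beforehand. Of the 36 uncalled, 8 did (values below are log2 fold changes). Without the 3 weak libraries Entpd1 stood at 0.25, Irf1 at 0.14 and Tigit at 0.053. Without codes E2, G1 and N3 Tigit was 0.23 and Tnfrsf18 0.58. With limma Tigit was 0.12 and Tnfrsf18 0.34, with each library as a sample Irf1 was 0.047 and Tigit 0.087, and on the 6 codes alone Fyco1 was 0.00014 and Irf1 0.0027. Leaving out 1 code at a time gave -0.49 to 0.28 for Entpd1, -0.20 to 0.12 for Fyco1, -0.42 to 0.50 for Irf1, -0.16 to 0.38 for Ptprc, -0.42 to 5.37 for Slc6a20a, -1.18 to 0.096 for Tbx21, -0.27 to 0.22 for Tigit and -0.59 to 0.22 for Tnfrsf18. The median log2 fold change of all genes was 0.08, and it reached 0.23 without G2, 0.20 without G3 and 0.18 with no filter, so small differences of list medians are read against it. No paired analysis was possible because the 2 groups share no replicate code. Depth limits E2 most, where 1 count is 1.32 CPM.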

Other observations

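Further genes that passed belong to none of the groups above and were picked for mention after their values were seen. Wls, which carries Wnt proteins to the surface, was 175, 299.8 and 265 CPM in WT Treg and 13.4, 64.02 and 63.2 CPM in LNGFR (2.39 ± 0.49, adjusted p = 0.0296) and rose, as did Rnf43, a ubiquitin ligase that removes Wnt receptors, at 80.3, 91.9 and 90.3 CPM and 12.4, 24.01 and 24.3 CPM (2.10 ± 0.34, adjusted p = 0.00883). Rhoh, a GTPase of T cell receptor signalling, was 411, 719 and 664 CPM and 162, 217 and 175 CPM (1.69 ± 0.31, adjusted p = 0.0174), and Slamf1, a self-binding lymphocyte receptor, 208, 201 and 157 CPM and 38.7, 90.9 and 61.6 CPM (1.56 ± 0.35, adjusted p = 0.0478). The groups did not overlap for any of the 4.

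Among genes that fell, Lilr4b, an inhibitory receptor of the Ig family, was 35.5, 22.96 and 12.4 CPM in WT Treg and 192, 229 and 244 CPM in LNGFR (-3.31 ± 0.39, adjusted p = 0.000885). Lgals3, the lectin galectin-3, was 23.7, 28.3 and 74.2 CPM and 530.3, 203 and 312 CPM (-3.01 ± 0.61, adjusted p = 0.0279), and without the weak libraries it did not pass (-2.98, adjusted p = 0.0600). Ctla2a, a protease inhibitor of activated T cells, was 26.3, 23.6 and 43.8 CPM and 468, 236 and 215 CPM (-3.27 ± 0.44, adjusted p = 0.00244). Hdc, the histamine-forming enzyme, was 2.63, 1.62 and 0.932 CPM and 21.5, 5.28 and 13.4 CPM (-3.16 ± 0.70, adjusted p = 0.0450). Hilpda, a lipid droplet protein induced by hypoxia, was 13.2, 21.2 and 35.3 CPM and 175, 84.3 and 87.03 CPM (-2.24 ± 0.39, adjusted p = 0.0118), the only 1 of 23 tested glycolysis and hypoxia genes that passed. Beside Hpgd, 2 genes were at 0 in all LNGFR codes and passed: Kctd12b was at least 34.03-fold and Unc93a at least 24.3-fold higher in WT Treg against a floor of 3 counts over the LNGFR group.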
